A study of Mus musculus with 35 samples.

Results

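Bulk RNA-seq of 2 populations of liver macrophages (macs) recruited in the fatty liver was compared. Monocyte-derived Kupffer cells (moKCs), sorted as CLEC4F+TIM4-, gave 5 samples, and CLEC4F- macs, sorted as CLEC4F-TIM4-, gave 6 samples, which is 11 of the 35 samples of the series. All came from livers of male C57Bl/6J mice, for which no transgene or deletion is named, kept for 24 weeks, from 5 weeks of age, on a Western diet (WD) rich in fat and cholesterol, with fructose and sucrose in the drinking water. No moKCs or CLEC4F- macs from a standard diet were analysed here, so nothing below measures an effect of the diet. The 6 samples of resident Kupffer cells (ResKCs, CLEC4F+TIM4+) from the same diet and time are given only as a reference level. Genes were included if they exceeded 1 CPM (counts scaled to library size) in at least 5 of the 35 samples, a rule met by 13421 of 54735 genes that does not use the comparison. The methods count n in animals and the number of mice sorted per population matches the number of samples, so each sample was taken as 1 mouse, although the labels do not number the mice. In bulk samples, fewer cells of a type and less RNA per cell cannot be told apart.

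Kupffer cells (KCs) line the sinusoids of the liver, where they clear particles, complement-coated microbes, old red cells and lipoproteins from the blood. When their niche is emptied, bone marrow monocytes enter it and gradually take on the KC programme, of which the lectin CLEC4F is an early mark and the phosphatidylserine receptor TIM4 a late one. Other recruited macs do not carry CLEC4F, and among them are cells that resemble the lipid-associated macs (LAMs) of adipose tissue, marked by osteopontin (*Spp1*), *Gpnmb*, *Trem2* and *Cd9*. The comparison asks in which genes recruited cells with the KC surface protein differ from recruited cells without it.

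The 11 samples held 11568590 to 15163845 counts, at which 3 counts correspond to 0.198 to 0.259 CPM, a floor that covers counting error only. The 8 general macrophage markers summed to 18430 to 23380 CPM in moKCs and 18530 to 23250 CPM in CLEC4F- macs. In a principal component analysis of the 11 samples, the first component (37.8% of the variance) placed the moKCs at 24.8 to 57.7 and the CLEC4F- macs at -65.5 to -26.1, except for CLEC4F- sample 4 at 5.13. On the second component (14.2%), moKC sample 1 lay at 54.9 and the other moKC samples between -34.1 and 10. Both samples, and CLEC4F- sample 1 at the far end of the first component, are followed by number. Sample names in the headers come in 2 styles, each used in both groups (2 and 3 moKC samples, 3 and 3 CLEC4F- samples), and what the styles stand for is not stated.

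Between the populations, 678 differentially expressed genes (DEGs) exceeded an absolute log2 fold change of 1 at an adjusted p under 0.05 (edgeR's quasi-likelihood test, Benjamini-Hochberg over 13421 genes). Of these, 314 were higher in moKCs, 2.34% of the genes tested, and 364 were higher in CLEC4F- macs, 2.71%. Among the DEGs, the fitted fold changes towards the CLEC4F- macs were larger. The median absolute log2 fold change was 2.05 among DEGs higher in CLEC4F- macs and 1.5 among DEGs higher in moKCs, and 89 against 26 exceeded 3. Some of the largest rest on moKC means near the counting floor (*Chil3* 0.27, *Mgl2* 0.33 and *Gpr141* 0.63 CPM). The part of such low levels, or of single samples, in this asymmetry was not tested. Without a limit on the fold change, 1253 genes were higher in moKCs (9.34%) and 951 in CLEC4F- macs (7.09%). The median log2 fold change of all tested genes was 0.01. In 1095 genes (8.16%) the 5 moKC samples and the 6 CLEC4F- samples did not overlap, which included 177 of the DEGs higher in moKCs and 233 of those higher in CLEC4F- macs. Fold changes are log2, moKC minus CLEC4F-, so that a positive value is higher in moKCs, and CPM are scaled with TMM factors.

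**Figure D1:**
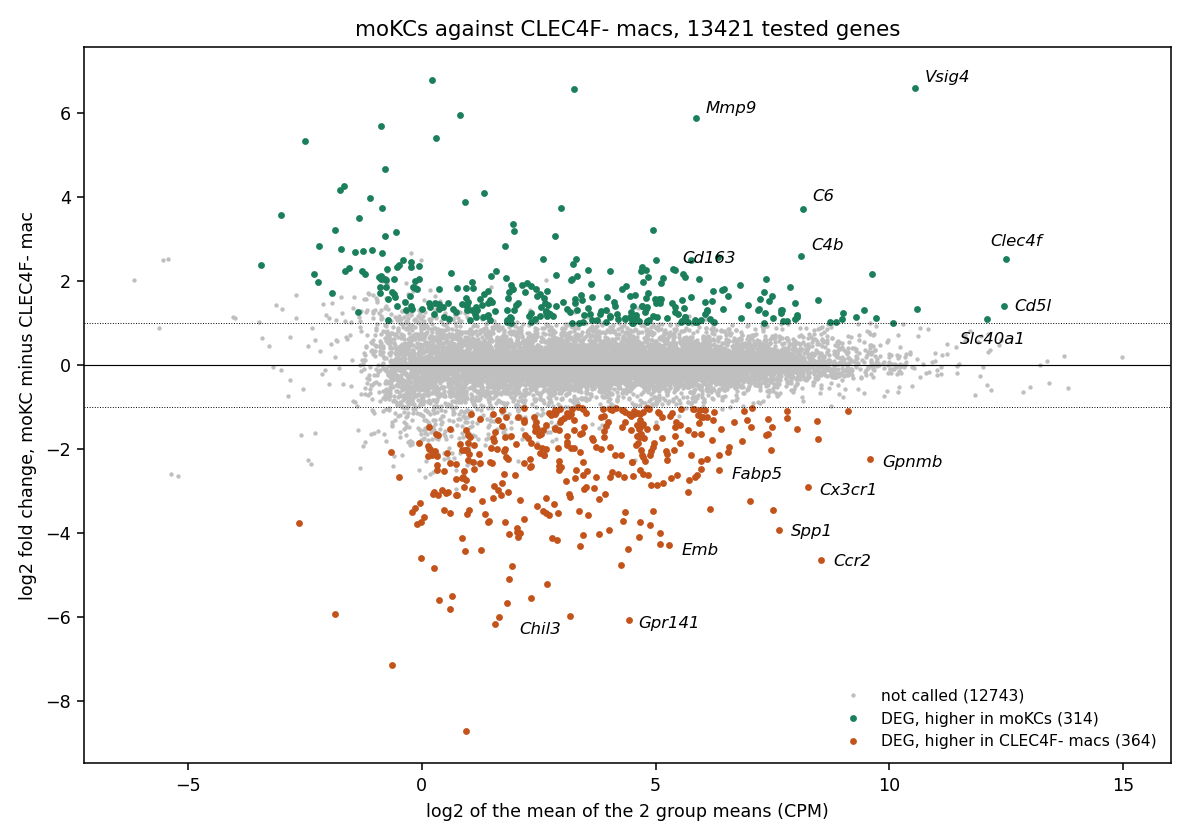
Each point is 1 of the 13421 tested genes, with its level (log2 of the mean of the 2 group means, in CPM) on the horizontal axis and its log2 fold change, moKC minus CLEC4F- mac, on the vertical axis. The 314 DEGs higher in moKCs are green, the 364 higher in CLEC4F- macs orange, and dotted lines mark a log2 fold change of 1 and -1; *Vsig4*, at 6.59, lies far above the other genes of its level.

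The samples of a group were not equally far from the other group. CLEC4F- sample 4 was the highest CLEC4F- sample in 200 of the 314 DEGs higher in moKCs and the lowest in 302 of the 364 DEGs higher in CLEC4F- macs, against 22.6% and 21.2% of all tested genes. It was thus the CLEC4F- sample nearest to the moKCs in most DEGs. At the other end, CLEC4F- sample 1 was the highest of its group in 264 of the 364 DEGs and the lowest in 155 of the 314. The shares over all tested genes were 19.9% and 18.8%. Among moKCs, sample 1 was the highest in 203 of the 314 DEGs and the lowest in 150 of the 364, against 26.8% and 27.1% of all tested genes. Since the DEGs were chosen on these samples, these counts describe the samples and are no test. With both moKC 1 and CLEC4F- 4 left out, 339 DEGs were higher in moKCs and 383 in CLEC4F- macs.

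**Figure D2:**
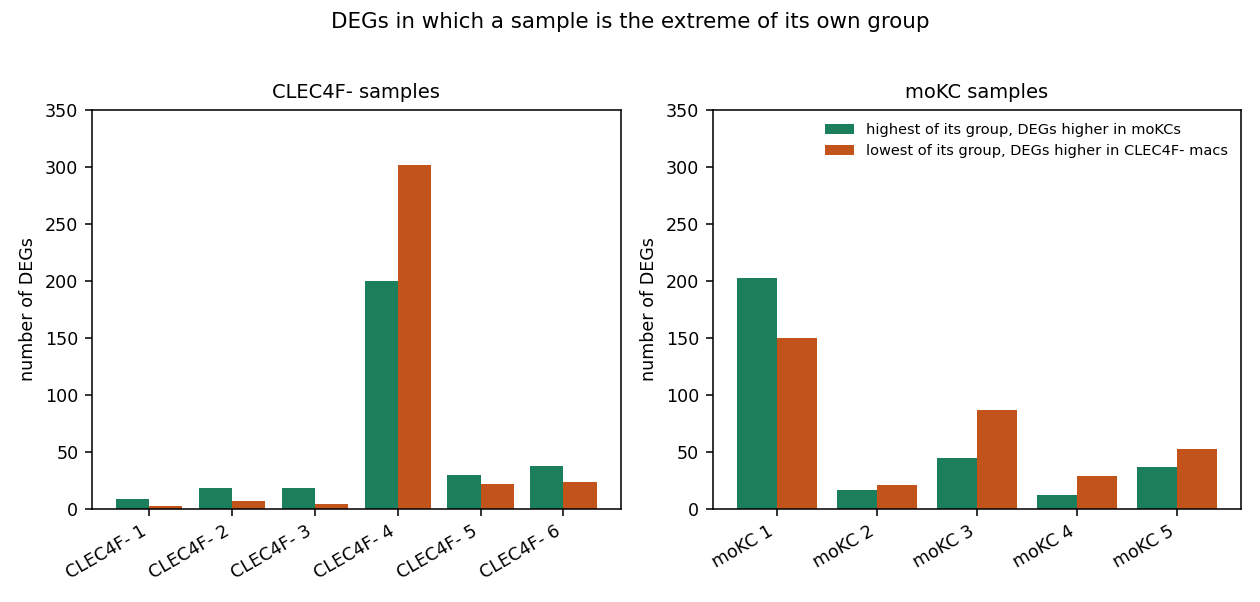
For each CLEC4F- sample (left) and each moKC sample (right), bars give the number of DEGs in which it is the extreme of its own group, in green as the highest among the DEGs higher in moKCs and in orange as the lowest among the DEGs higher in CLEC4F- macs. CLEC4F- sample 4 reaches 200 and 302 genes, and moKC sample 1 reaches 203 and 150.

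The genes of the sorted proteins CLEC4F and TIM4 were examined first, together with *Clec1b*, whose protein was not used in the sort. *Clec4f* (chr6:83644542-83656187, GRCm38), which encodes the KC lectin, stood at 11618, 8317, 10720, 7326 and 11240 CPM in moKC samples 1 to 5 and at 294, 802, 1185, 5488, 1001 and 1539 CPM in CLEC4F- samples 1 to 6. The groups did not overlap, but CLEC4F- sample 4 reached 55.8% of the moKC mean while the other CLEC4F- samples lay between 2.99% and 15.6%. The difference was 2.52 on the log2 scale (standard error, SE, 0.36, adjusted p = 4.92e-06), and 3.35 without CLEC4F- sample 4. *Timd4*, which encodes TIM4, had 2.85 to 30.3 CPM in moKCs and 3.43 to 14.6 CPM in CLEC4F- macs, with overlapping groups (log2 fold change 0.60, SE 0.36, adjusted p = 0.295), whereas the 6 ResKC samples had 547 to 885 CPM. Both populations were thus far below the ResKCs in *Timd4*, as their sort on TIM4 requires. *Clec1b*, which encodes the podoplanin receptor CLEC2, was higher in moKCs (496 ± 86.0 CPM, SD, n = 5) than in CLEC4F- macs (263 ± 107 CPM, SD, n = 6), by 0.92 on the log2 scale (SE 0.17, adjusted p = 0.000194). Its groups overlapped, because CLEC4F- sample 4 (432 CPM) lay above moKC sample 1 (370 CPM).

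*Vsig4* (chrX:96247203-96293438), which encodes the complement receptor CRIg that binds C3b-coated particles, differed by a larger fold than the gene of the sorted protein. It stood at 2852, 2747, 2750, 2984 and 3451 CPM in moKC samples 1 to 5 and at 21.3, 11, 9.63, 46.5, 50.7 and 45.2 CPM in CLEC4F- samples 1 to 6. The groups lay far apart, all moKC samples were near the level of the ResKCs (2772 to 3441 CPM), and CLEC4F- sample 4 stayed among its group. CLEC4F- samples 1 to 3 (9.63 to 21.3 CPM) carry the first style of sample names and samples 4 to 6 (45.2 to 50.7 CPM) the second. This was a difference of 6.59 on the log2 scale (SE 0.29, adjusted p = 2.31e-17), with 7.72 and 6.00 within the first and second style of sample names, and it ranged from 6.41 to 7.02 over all alternatives. The mean in CLEC4F- macs was 1.04% of that in moKCs, against 17.5% for *Clec4f*, 37.3% for *Cd5l* and 53.0% for *Clec1b*. CLEC4F- sample 4 shows the contrast within 1 library. There, *Clec1b* reached 87.1% of the moKC mean, *Cd5l* 80.5%, *Mrc1* 72.6%, *Fcna* 56.8%, *Folr2* 53.6% and *C6* 30.3%, and *Vsig4* reached 1.57%. Within each sample, the log2 ratio of *Vsig4* to *Clec4f* lay between -2.03 and -1.30 in moKCs and between -6.92 and -3.78 in CLEC4F- macs, without overlap. These ratios were chosen after the values were seen and are a description.

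**Figure D3:**
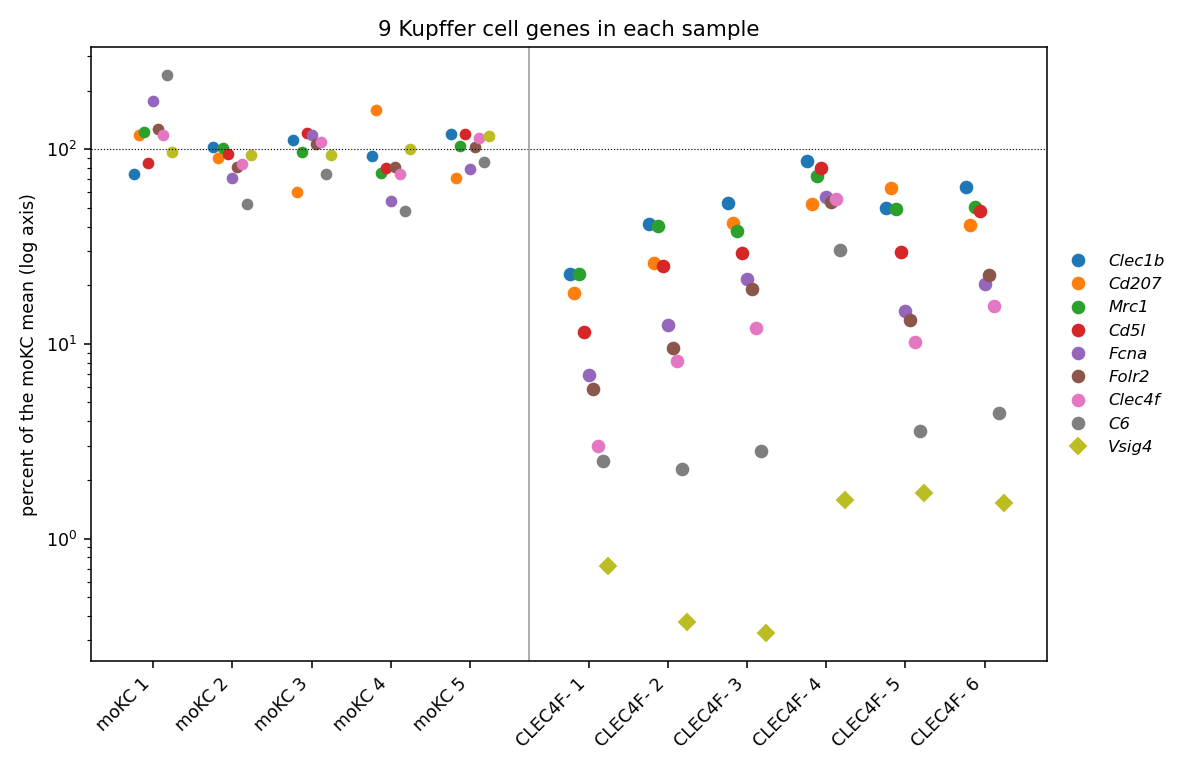
Each point is the CPM of 1 of 9 KC genes in 1 sample, as percent of that gene's mean in the 5 moKC samples, on a log axis, with the moKC samples left and the CLEC4F- samples right of the line. In CLEC4F- sample 4 the other 8 genes lie between 30.3% and 87.1%, and *Vsig4* (diamonds) lies at 1.57%, within its range of 0.326% to 1.71% over the CLEC4F- samples.

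**Figure D4:**
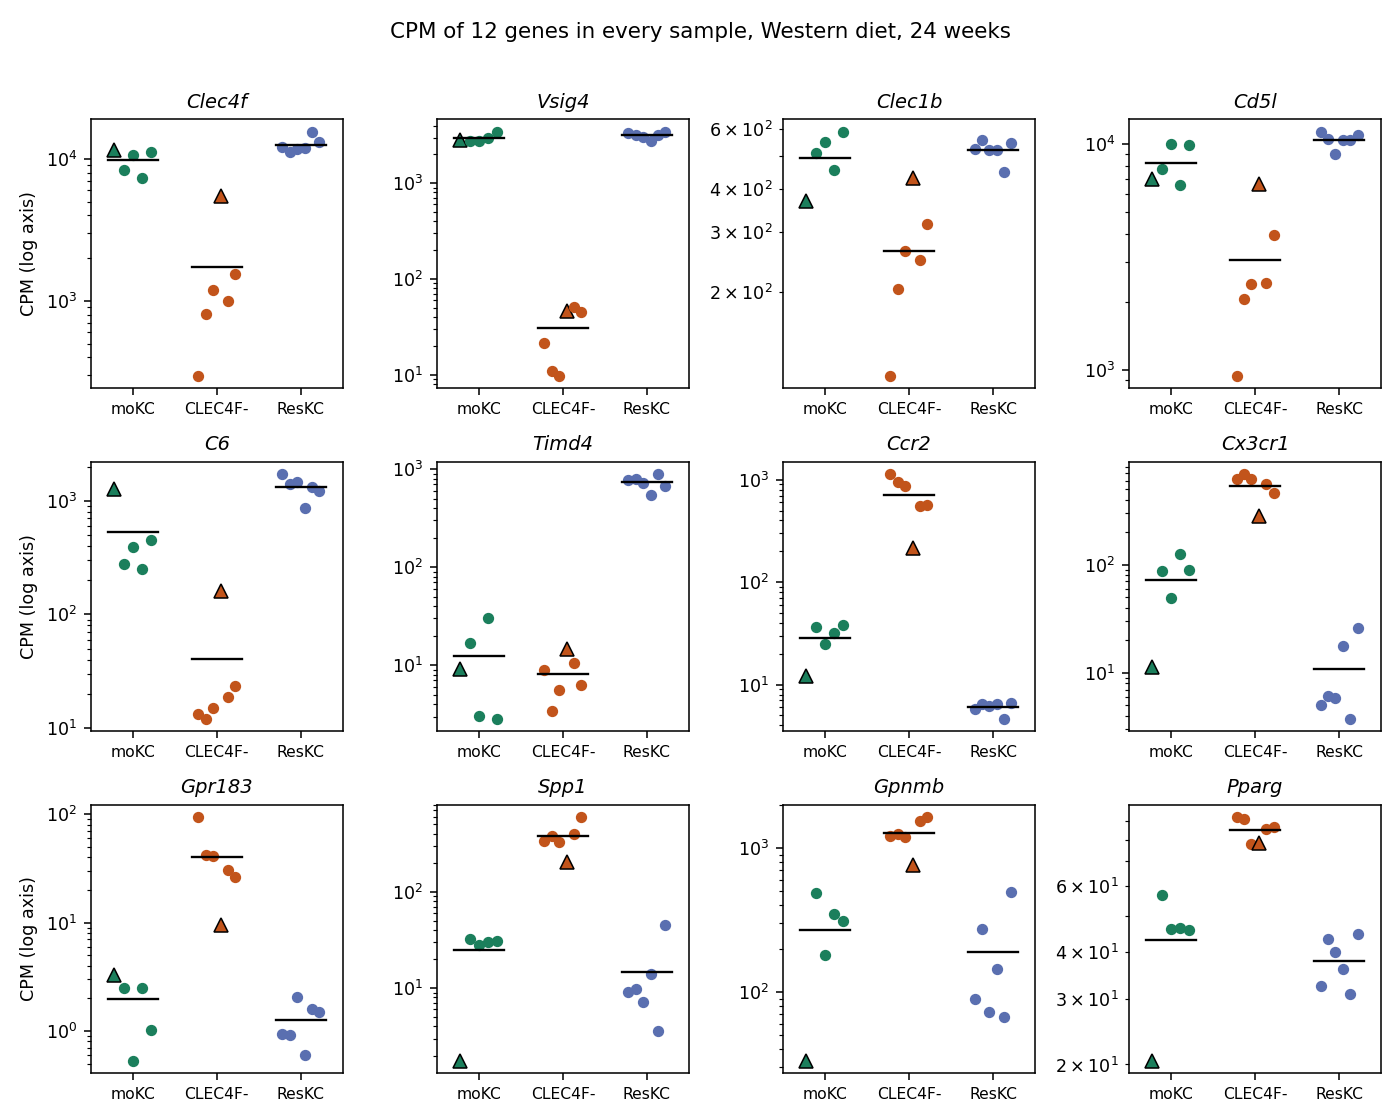
CPM on a log axis of 12 genes in each moKC (green), CLEC4F- (orange) and ResKC (blue) sample of the WD at 24 weeks, with a line at each group mean and triangles for moKC sample 1 and CLEC4F- sample 4. *Vsig4* separates moKCs from CLEC4F- macs without an intermediate sample, *Timd4* is near 10 CPM in both and high in ResKCs alone, and CLEC4F- sample 4 lies towards the moKCs in *Clec4f*, *C6*, *Ccr2* and *Gpr183*.

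Among DEGs without overlap and over 10 CPM, the 10 with the largest fold changes towards moKCs were *Vsig4*, *Mmp9*, *C6*, *Gpm6b*, *C4b*, *Chp2*, *Kcp*, *Tmtc1*, *Clec4f* and *Pcolce2*. *C6* (chr15:4727175-4814967), a component of the membrane attack complex, had 1268, 276, 392, 253 and 452 CPM in moKC samples 1 to 5 and 13.2, 12.0, 14.9, 160, 18.8 and 23.3 CPM in CLEC4F- samples 1 to 6. No samples overlapped, but moKC sample 1 and CLEC4F- sample 4 each stood above the rest of their groups. On the log2 scale the difference was 3.71 (SE 0.49, adjusted p = 1.6e-06), 3.09 without moKC sample 1 and 5.01 without CLEC4F- sample 4. *C4b*, the complement component that anchors the classical and lectin pathway convertase, had 1512 CPM in moKC sample 1 and 165 to 279 CPM in the other moKC samples, against 40.2 to 127 CPM in CLEC4F- macs. Its log2 fold change of 2.61 fell to 1.48 without moKC sample 1. *Mmp9*, the gelatinase, had a log2 fold change of 5.88 that rested on 510 CPM in moKC sample 1. The other 4 moKC samples had 10.1 to 20.7 CPM, still above the 0.284 to 4.65 CPM of the CLEC4F- samples, and the log2 fold change without moKC sample 1 was 2.97. DESeq2 gave no adjusted p for *Mmp9*, *C6*, *Clec4f* and *Pcolce2*. *Pcolce2*, an enhancer of procollagen processing, was higher in moKCs at 64.1 to 121 CPM against 3.81 to 53.9 CPM (log2 fold change 2.51, SE 0.35). *Chp2*, *Gpm6b*, *Kcp* and *Tmtc1* had log2 fold changes of 2.57, 3.07, 2.53 and 2.52. Of these, *Kcp* was at 1.88 without moKC sample 1, and *Gpm6b*, *Tmtc1* and *Pcolce2* were at 4.03, 3.40 and 3.41 without CLEC4F- sample 4.

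By difference of mean CPM, the largest DEGs higher in moKCs were *Clec4f*, *Cd5l*, *Slc40a1*, *Vsig4* and *Cfp*. *Cd5l*, which encodes the scavenger protein AIM, had 8207 ± 1608 CPM (SD, n = 5) in moKCs against 3065 ± 1983 CPM (SD, n = 6), a log2 fold change of 1.42 (adjusted p = 5.25e-05). *Slc40a1*, which encodes the iron exporter ferroportin, had 5965 ± 793 and 2790 ± 1462 CPM (log2 fold change 1.10, adjusted p = 0.00013). In both genes CLEC4F- sample 4 (6604 and 5507 CPM) lay within the range of the moKCs. *Cfp*, which encodes properdin, the stabiliser of the alternative pathway convertase, had 1902 to 2571 CPM in moKCs and 475 to 1534 CPM in CLEC4F- macs, without overlap (log2 fold change 1.34, adjusted p = 2.01e-06).

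The 10 genes with the largest fold changes towards CLEC4F- macs were chosen by the same limits. *Ccr2* (chr9:124101950-124113557), the chemokine receptor with which monocytes leave the bone marrow, had 12.1, 36.7, 25.0, 31.7 and 38.1 CPM in moKC samples 1 to 5 and 1131, 957, 866, 217, 557 and 572 CPM in CLEC4F- samples 1 to 6. The lowest CLEC4F- sample, number 4, was still above every moKC sample, and the ResKCs were lower than both at 4.65 to 6.62 CPM. On the log2 scale moKCs differed by -4.64 (SE 0.35, adjusted p = 5.84e-11). *Gpr141*, an orphan receptor, had 0 to 1.42 CPM in moKCs and 16.8 to 85.3 CPM in CLEC4F- macs, with a fitted log2 fold change of -6.07. *Chil3*, the chitinase-like protein Ym1, had 0.0712 to 0.646 CPM against 7.96 to 35.9 CPM, with a fitted value of -5.98 and of -6.63 without moKC sample 1. For these genes and *Mgl2*, a galactose-type lectin of monocyte-derived cells (0.0646 to 0.716 CPM in moKCs, 0.804 to 39.1 CPM in CLEC4F- macs), some moKC samples lay below 3 counts, so the fitted fold depends on the prior count. *Mgl2* was at -5.22, and at -4.42 without CLEC4F- sample 1, which alone held 39.1 CPM. *Gpr183*, the oxysterol receptor EBI2, had 0.525 to 3.29 CPM in moKCs and 9.57 to 94.9 CPM in CLEC4F- macs (log2 fold change -4.37, adjusted p = 3.93e-06). *F13a1*, which encodes the coagulation factor XIII A chain, had 1.64 to 5.41 against 18.9 to 105 CPM (-4.26), and *Runx3*, a transcription factor of leukocytes, 0.258 to 1.83 against 8.26 to 41.3 CPM (-4.31). The monocarboxylate transporter partner *Emb*, the Fc receptor-like *Fcrls* and the drug efflux pump *Abcb1b* completed the 10, at -4.29, -4.15 and -4.10. *Fcrls* had 0 to 1.35 CPM in moKCs and 8.55 to 22.3 CPM in CLEC4F- macs, so its fitted fold depends on the prior count too. That none of the 10 overlapped between the groups is required by these limits.

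By difference of mean CPM, *Gpnmb*, *Ccr2*, *Cx3cr1*, *Tgfbi* and *Ccl9* were the largest DEGs higher in CLEC4F- macs. *Gpnmb*, a lysosomal glycoprotein of lipid-laden macs, had 33.0, 484, 181, 346 and 309 CPM in moKC samples 1 to 5 and 760 to 1651 CPM in CLEC4F- macs. No samples overlapped, and moKC sample 1 lay lowest. Its log2 fold change of -2.23 (SE 0.69) passed at an adjusted p of 0.0217 and did not pass without moKC sample 1 or without moKC sample 3. *Cx3cr1*, the fractalkine receptor, had 11.2 to 124 CPM in moKCs and 281 to 687 CPM in CLEC4F- macs (log2 fold change -2.89, adjusted p = 5.18e-05). *Tgfbi*, a TGF-beta-induced matrix protein, had 353 ± 61.4 and 748 ± 133 CPM (-1.08, adjusted p = 5.21e-07), and the chemokine *Ccl9* had 162 ± 86.4 and 546 ± 159 CPM (-1.75, adjusted p = 0.000495).

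The promoters of 4 genes are shown because their genes carry the contrast: *Vsig4* and *Clec4f*, the KC genes that came apart in CLEC4F- sample 4, and *Spp1* and *Gpr141*, both high in CLEC4F- macs. Each run holds the bases before the RefSeq start (250, or the part of them upstream of the GENCODE gene for *Clec4f*), 5′ to 3′ on the gene's strand in GRCm38.p6, with matches to any of 9 searched motifs in capitals.
*Vsig4*, chrX:96293439-96293688, minus strand: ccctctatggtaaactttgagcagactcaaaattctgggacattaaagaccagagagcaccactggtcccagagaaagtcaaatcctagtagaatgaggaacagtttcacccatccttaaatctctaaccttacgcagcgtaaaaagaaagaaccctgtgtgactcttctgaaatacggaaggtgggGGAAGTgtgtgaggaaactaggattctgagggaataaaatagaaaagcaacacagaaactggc
*Clec4f*, chr6:83656188-83656366, minus strand: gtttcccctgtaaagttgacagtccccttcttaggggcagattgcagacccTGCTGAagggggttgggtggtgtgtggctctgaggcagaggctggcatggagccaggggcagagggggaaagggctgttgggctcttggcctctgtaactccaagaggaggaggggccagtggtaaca
*Spp1*, chr5:104434861-104435110, plus strand: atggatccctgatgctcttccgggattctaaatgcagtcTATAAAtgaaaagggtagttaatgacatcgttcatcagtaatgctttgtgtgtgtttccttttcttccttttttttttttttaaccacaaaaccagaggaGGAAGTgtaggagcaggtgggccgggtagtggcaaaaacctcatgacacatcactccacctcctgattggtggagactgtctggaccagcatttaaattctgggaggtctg
*Gpr141*, chr13:19824258-19824507, minus strand: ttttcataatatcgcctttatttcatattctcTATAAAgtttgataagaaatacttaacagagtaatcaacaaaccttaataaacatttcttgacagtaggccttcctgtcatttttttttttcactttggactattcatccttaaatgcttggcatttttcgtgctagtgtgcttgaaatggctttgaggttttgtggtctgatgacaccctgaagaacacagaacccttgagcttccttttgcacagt
Promoters of 300 bases, 250 before and 50 after the start, were found for 8 of the 10 genes with the largest fold changes towards moKCs and for all 10 towards CLEC4F- macs, and both strands were searched. The ETS core GGAAGT, read by PU.1 and SPI-C, was in 4 of 8 and 5 of 10 promoters, against 23.8% of 32851 promoters. The Notch-linked RBPJ core TGGGAA, whose match in *Clec4f*, outside the printed stretch, overlaps an ETS core, was in 3 of 8 and 3 of 10 (25.6% of all). The nuclear receptor half-site AGGTCA was in 3 of 8 (*Clec4f*, *C6*, *Chp2*) and 0 of 10 (16.3%), the MAF half-site TGCTGA in 2 of 8 and 3 of 10 (19.5%), and TATAAA in 0 of 8 and 3 of 10 (13.6%). AP-1 (TGACTCA, 5.20%), the E-box CACGTG (7.15%), an NF-kappaB-type site (GGAAATCC, 1.16%) and a SMAD palindrome (GTCTAGAC, 0.213%) were in none of these promoters. With so few genes, these counts are a description of letters, not of sites.

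Gene lists were then read by role, each as the number of members past an adjusted p of 0.05 in either direction, beside the 9.34% and 7.09% of all tested genes and their median log2 fold change of 0.01. The lists were chosen with earlier results of these data known, so their ranks are a description and no test. KC receptors and secreted proteins hold *Clec4f*, the gene of the sort. They were the list with the most members higher in moKCs, 16 of 20, with none higher in CLEC4F- macs and a median of 1.36. Beside the genes above they included *Fcna*, a ficolin that starts the lectin pathway (696 to 2286 CPM in moKCs, 89.4 to 733 CPM in CLEC4F- macs, log2 fold change 2.18), *Folr2*, the folate receptor beta (57.2 to 90.2 against 4.16 to 37.8 CPM, 2.28), *Cdh5* (189 to 351 against 31.5 to 141 CPM, 1.75), the lipid carrier *Fabp7* (1.87) and the mannose receptor *Mrc1* (1.13). *Cd207*, which encodes langerin, was higher in moKCs (600 to 1588 CPM) than in CLEC4F- macs (181 to 630 CPM, log2 fold change 1.30, adjusted p = 0.00372), and the ResKCs had 82.6 to 239 CPM. The haemoglobin-haptoglobin receptor *Cd163* was higher in moKCs (33.5 to 113 CPM) than in CLEC4F- macs (9.01 to 28.9 CPM, log2 fold change 2.30, adjusted p = 6.02e-07), at a level far below the 880 to 2007 CPM of the ResKCs. Members that did not pass were *Timd4*, *Marco* (1.26, adjusted p = 0.184), *Cd209f* and *Cd209g*, of which *Marco* had 2.65 to 51.4 CPM in moKCs, 2.33 to 16.4 CPM in CLEC4F- macs and 462 to 2116 CPM in ResKCs.

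Of 20 KC transcription factors and BMP, Notch and LXR genes, 7 were higher in moKCs and 2 in CLEC4F- macs, with a median of 0.22 and no DEG among the 7. *Nr1h3*, which encodes the oxysterol receptor LXR-alpha, had 712 ± 56.3 CPM (SD, n = 5) in moKCs against 445 ± 77.6 CPM (SD, n = 6), a difference of 0.68 (adjusted p = 2.6e-06), and its partner *Rxra* had 480 ± 48.6 and 257 ± 73.6 CPM (0.90, adjusted p = 2.01e-06). Neither gene overlapped between the groups. The Notch target *Hey1* was at 0.98 (adjusted p = 0.0185), which did not pass without moKC sample 5 or CLEC4F- sample 1, and *Irf7* at 0.82. The lower members in moKCs were *Rbpj*, the DNA-binding factor of Notch signalling (9.52 to 17.6 CPM against 11.3 to 47.0 CPM, -1.17, adjusted p = 5.74e-05), and *Pparg*, the fatty acid sensing receptor (20.4 to 57.0 against 77.8 to 92.2 CPM, -0.98, adjusted p = 0.000177). *Id3* (0.20, adjusted p = 0.593), *Spic* (-0.04, adjusted p = 0.914) and *Maf* (0.13, adjusted p = 0.488), factors linked to KC identity, did not pass.

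Monocyte genes were the list with the lowest median, -2.59, with 13 of 19 tested members higher in CLEC4F- macs and 2 in moKCs. *Vcan* was not tested, because it did not meet the filter. In *S100a6* the CLEC4F- samples had 11.5 to 108 CPM and the moKC samples 2.06 to 3.29 CPM (log2 fold change -4.10), in *Napsa* 16.4 to 120 and 1.42 to 9.97 CPM (-3.47), and in *Ms4a4c* 64.7 to 188 and 25.6 to 40.2 CPM (-1.78). The classical monocyte gene *Ly6c2* was at -4.79, on a mean of 7.39 CPM in CLEC4F- macs. *Treml4* (0.60, adjusted p = 4.17e-05) and the hyaluronan receptor *Cd44* (0.48, adjusted p = 0.00925) were the members higher in moKCs.

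Chemokine and leukocyte attractant receptors showed members in both directions, 9 of 18 higher in CLEC4F- macs and 3 in moKCs, with a median of -0.88. Besides *Ccr2*, *Cx3cr1* and *Gpr183*, the platelet-activating factor receptor *Ptafr* (41.1 to 134 CPM in CLEC4F- macs, 2.78 to 23.2 CPM in moKCs, -2.73), *Ccr1* (-2.13) and *Cxcr4* (-2.02) were higher in CLEC4F- macs. The formyl peptide receptors ran the other way. *Fpr1* had 284 to 443 CPM in moKCs and 54.6 to 259 CPM in CLEC4F- macs (1.47, adjusted p = 1.05e-05), and *Fpr2* had 24.3 to 40.6 and 9.50 to 21.8 CPM (0.86, adjusted p = 0.00474). In both genes the samples of the groups did not overlap.

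Of 20 LAM genes, 9 were higher in CLEC4F- macs and 1 in moKCs, with a median of -0.39. Leaving out moKC sample 1, CLEC4F- sample 4 or CLEC4F- sample 6 raised the number higher in moKCs to 2. The number higher in CLEC4F- macs fell to 7 without moKC sample 1 and to 5 with a replicate block. *Spp1* (osteopontin) had 1.74, 32.7, 28.2, 29.8 and 31.1 CPM in moKC samples 1 to 5 and 336, 381, 325, 205, 394 and 598 CPM in CLEC4F- samples 1 to 6. Every CLEC4F- sample was above every moKC sample (log2 fold change -3.92, SE 0.68, adjusted p = 7.98e-05). The fatty acid binding protein *Fabp5* had 11.3 to 38.2 CPM in moKCs and 71.0 to 193 CPM in CLEC4F- macs (-2.48, adjusted p = 6.02e-07). *Lgals1* (-2.06), *Cd63* (-1.52), *Cd9* (-1.26), *Trem2* (-1.09), the lipid droplet coat *Plin2* (-0.67) and *Lgals3* (-0.64) also passed. Among members that did not pass were *Lpl* (-0.22, adjusted p = 0.373), *Cd36* (0.11, adjusted p = 0.76), *Lipa* (-0.08, adjusted p = 0.70) and *Apoe* (0.20, adjusted p = 0.419). The protease *Ctsl* was higher in moKCs (431 to 575 against 199 to 417 CPM, 0.79, adjusted p = 4.44e-05). moKC sample 1 was the lowest moKC sample in *Spp1*, *Gpnmb*, *Cd9*, *Trem2*, *Cd63*, *Fabp5* and *Lgals1*.

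Complement had 10 of 20 members higher in moKCs and 2 in CLEC4F- macs, with a median of 0.65. The 3 chains of C1q moved together at lower folds than *C6*, *C4b* and *Vsig4*, with log2 fold changes of 0.72 for *C1qa* (3735 to 4048 CPM in moKCs, 1576 to 3171 CPM in CLEC4F- macs), 0.49 for *C1qb* and 0.69 for *C1qc*. *C1ra*, *Cfb*, *Cfp* and *Vsig4* were also among the higher members. *Itgax*, the alpha chain of complement receptor 4, was higher in CLEC4F- macs (179 to 336 against 22.4 to 109 CPM, -2.02, adjusted p = 5.09e-05). The anaphylatoxin receptor *C5ar1* was at -0.55 with an adjusted p of 0.0476, which did not pass in 14 of 21 alternatives, among them the fits without moKC samples 1, 3 or 5 or without any CLEC4F- sample other than number 4.

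Iron and heme genes had 8 of 20 members higher in moKCs and 1 in CLEC4F- macs, with a median of 0.40. Beside *Slc40a1* and *Cd163*, the transferrin receptor *Tfrc* (62.9 to 126 against 29.5 to 74.4 CPM, 1.22, adjusted p = 0.0034), *Blvrb* (0.67) and *Hfe* (0.64) were higher in moKCs, and the ferritin heavy chain *Fth1* was higher in CLEC4F- macs (-0.48, adjusted p = 0.00397). Without CLEC4F- sample 1 the number higher in moKCs was 5. Apoptotic cell uptake had 5 of 18 members higher in moKCs, which were the scavenger receptor *Stab2* (218 to 384 against 74.4 to 180 CPM, 1.31, adjusted p = 2.01e-06), the kinase *Mertk* (0.52), its bridging ligand *Pros1* (0.55, not passed without moKC sample 1), *Msr1* (0.49) and *Scarb1* (0.46). *Axl* (0.10, adjusted p = 0.56) and *Gas6* (0.18, adjusted p = 0.694) did not pass, and 1 member was higher in CLEC4F- macs in fits without moKC sample 4 or CLEC4F- sample 4. Of 21 cholesterol efflux and lipoprotein genes, 4 were higher in moKCs and 3 in CLEC4F- macs (median -0.02), the latter 1 in each fit without moKC sample 1, 3 or 5 or CLEC4F- sample 2. *Pltp*, the phospholipid transfer protein, had 1944 to 2201 CPM in moKCs and 674 to 1489 CPM in CLEC4F- macs (0.88, adjusted p = 6.04e-05), and the apolipoprotein gene *Apoc1* had 315 to 886 and 70.3 to 312 CPM (1.56, adjusted p = 2.81e-05). The lysosomal cholesterol transporter *Npc1* was at -0.40 (adjusted p = 0.0263), not passed without moKC sample 1 or CLEC4F- sample 2, and the efflux pumps *Abca1* (0.09) and *Abcg1* (-0.16) did not pass.

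Matrix and fibrosis-linked genes had 10 of 23 members higher in CLEC4F- macs and 3 in moKCs, with a median of -0.41. Those higher in CLEC4F- macs included *Thbs1* (32.0 to 250 against 14.5 to 29.7 CPM, -2.46, adjusted p = 0.002), the oncostatin gene *Osm* (4.02 to 94.2 against 1.12 to 7.71 CPM, -3.72, and -4.53 without moKC sample 4), the sheddase *Adam8* (45.7 to 113 against 2.13 to 35.6 CPM, -2.13, adjusted p = 0.0159, not passed in DESeq2), the membrane-type protease *Mmp14* (-1.65) and *Tgfb1* (-0.41). *Pdgfc*, a ligand of the PDGF receptor alpha, was higher in moKCs (66.0 to 136 against 20.5 to 92.7 CPM, 1.03, adjusted p = 0.0151), a call lost without moKC sample 5 or CLEC4F- sample 1, and *Igf1* was at 0.54. Of 12 osteoclast-like and fusion genes, 3 were higher in CLEC4F- macs, of which *Nfatc1* (-0.42, adjusted p = 0.00596) was the one over 10 CPM, and *Mmp9*, with no adjusted p in DESeq2, was higher in moKCs. *Atp6v0d2* (-0.88, adjusted p = 0.35) and *Acp5* (-0.06, adjusted p = 0.854) did not pass.

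MHC class II and costimulation had 4 of 16 members higher in CLEC4F- macs (*H2-Oa*, *H2-Ob*, *H2-DMb2*, *Pdcd1lg2*) and 1 in moKCs (*Cd86*, 336 to 477 against 209 to 377 CPM, 0.67, adjusted p = 8.06e-05), with a median of -0.56. The class II chains themselves did not pass, with log2 fold changes of -0.59 for *H2-Aa*, -0.63 for *H2-Ab1*, -0.72 for *H2-Eb1* and -0.54 for *Cd74*. *H2-Ob* had 28.7 CPM in CLEC4F- sample 1 and 4.16 to 10.7 CPM in the others, and its call was lost without that sample, as was 1 other of the 4. Among chemokines, 2 of 21 were higher in moKCs and 4 in CLEC4F- macs (median -0.09). *Ccl24*, an eosinophil attractant, had 170 to 303 CPM in moKCs and 40.6 to 147 CPM in CLEC4F- macs (1.58, adjusted p = 2.34e-05). *Cxcl13*, the B cell attractant, had 204 CPM in moKC sample 1 and 6.67 to 41.0 CPM in the others, and its log2 fold change of 3.21 (adjusted p = 0.00153) was 1.59 and not passed without that sample, nor did it pass in limma-voom. *Ccl22* (-2.66) had 74.1 CPM in CLEC4F- sample 1 and was at -1.80, not passed, without it, and did not pass without moKC sample 3 either. When CLEC4F- sample 1 was left out, 2 of the 4 chemokines higher in CLEC4F- macs still passed. *Ccl5*, a T cell attractant, was at -1.14 (adjusted p = 0.0123).

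Interferon-stimulated genes had 7 of 18 higher in moKCs and none in CLEC4F- macs (median 0.29), led by *Ifi44* (120 to 205 against 34.7 to 116 CPM, 1.12, adjusted p = 0.00143) and *Ifi208* (31.3 to 47.5 against 16.4 to 26.2 CPM, 1.02, adjusted p = 5.74e-05). Of 20 inflammatory cytokines and enzymes, 2 were higher in moKCs (*Il1a*, 0.95, and *Tgm2*, 0.45) and 2 in CLEC4F- macs (the mincle gene *Clec4e*, -3.50, at 5.70 to 82.0 against 1.49 to 6.04 CPM, and *Tlr2*, -0.34). The calls of *Il1a* (adjusted p = 0.0268) and *Tlr2* (adjusted p = 0.0251) were each lost in fits without 1 sample, for *Il1a* without moKC 1 or 4 or CLEC4F- 1, 2 or 6 and for *Tlr2* without moKC 2 or 3 or CLEC4F- 1. With CLEC4F- sample 4 left out, 4 members of the list were higher in moKCs. *Tnf* (0.68, adjusted p = 0.55), *Il1b* (-0.46, adjusted p = 0.658) and *Il10* (0.99, adjusted p = 0.105) did not pass. None of 18 cell cycle genes and none of 12 immediate-early and heat-shock genes passed in edgeR's test, with medians of 0.16 and -0.15, and 0 and 1 of them had an unadjusted p under 0.05. DESeq2 and limma-voom called 0 in either list too. The latter summed to between 2223 and 13080 CPM over the moKC samples and between 2732 and 14530 CPM over the CLEC4F- samples, and moKC sample 1 and CLEC4F- sample 1 held the highest sum of their groups. The part of this spread in the results was not tested.

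**Figure D5:**
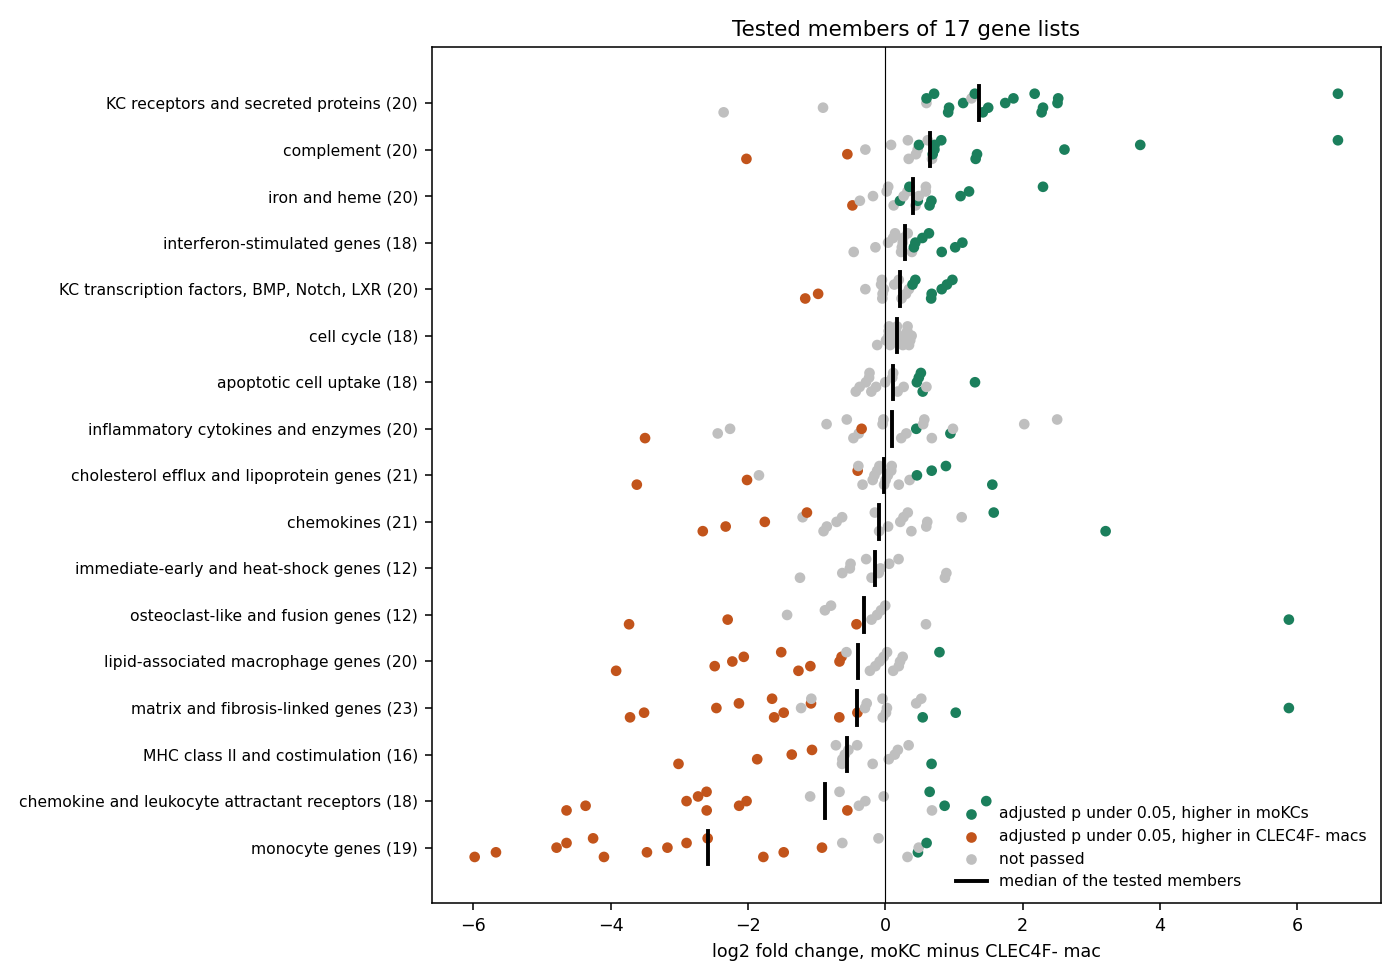
Each point is 1 tested member of the list named on the vertical axis (number tested in parentheses) at its log2 fold change, moKC minus CLEC4F- mac, in green or orange where it passed an adjusted p of 0.05 and in grey where it did not, with a black bar at the list's median. KC receptors and secreted proteins have the highest median, 1.36, and monocyte genes the lowest, -2.59.

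Markers of other cells moved with some of these results. Members past an adjusted p of 0.05 are again read beside all tested genes, 9.34% higher in moKCs and 7.09% in CLEC4F- macs. Of 9 tested dendritic cell markers, 4 were higher in CLEC4F- macs (*Cd209a*, *Flt3*, *Ccr7*, *Itgae*) and none in moKCs. The 10 listed dendritic cell markers, these 4 included, summed to 131 to 250 CPM in moKCs and 149 to 443 CPM in CLEC4F- macs. The sum was highest in CLEC4F- sample 1, where *Cd209a* had 121 CPM against 1.94 to 43.9 CPM in the others. B cell markers had 2 of 7 members higher in CLEC4F- macs, *Cd79a* and *Ms4a1*, and summed to 52.2 to 279 CPM in moKCs and 76.6 to 838 CPM in CLEC4F- macs, again highest in CLEC4F- sample 1. In that sample *Cd79a* had 46.4 CPM, against 1.90 to 7.57 CPM in the others of its group. T and NK cell markers summed to 3.61 to 14.1 CPM in moKCs and 8.67 to 35.7 CPM in CLEC4F- macs, with 1 of 6 tested members (*Trac*) higher in CLEC4F- macs. Of the neutrophil markers, *Ly6g*, *Camp* and *Ngp* were at 0 in all 11 samples and *Csf3r* was higher in CLEC4F- macs (-0.41). Among sinusoidal endothelial markers *Stab2*, also counted under apoptotic cell uptake, was higher in moKCs and 9 did not pass, with a median of 0.53. The 10 summed to 466 to 1713 CPM in moKCs, highest in sample 1, and to 436 to 803 CPM in CLEC4F- macs. In moKC samples 1 and 2 both this sum (1713 and 1290 CPM) and *Stab2* itself (384 and 341 CPM) were highest. No marker of hepatocytes (1476 to 3041 CPM summed in moKCs, 756 to 3187 CPM in CLEC4F- macs), stellate cells and fibroblasts (103 to 218 and 90.8 to 309 CPM), cholangiocytes (0.712 to 2.62 and 1.21 to 5.20 CPM) or platelets and erythroid cells (10.5 to 68.1 and 2.36 to 41.1 CPM) passed in edgeR's test, and 0 had an unadjusted p under 0.05. Of the macrophage markers, *Adgre1* (0.87), *Csf1r* (0.60) and *Mertk* were higher in moKCs. Without CLEC4F- sample 1, 270 DEGs were higher in CLEC4F- macs. A fit with the mean log2 CPM of the hepatocyte markers as a covariate was among the alternatives, and in it the number of LAM genes higher in moKCs changed. The part of the other cells in the differences was not tested.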

How the data were processed

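Single reads of TruSeq libraries were mapped by the authors to mm10 with HISAT2 2.2.0 and counted per gene with featureCounts 2.0.0, per the methods and the submitters' processing notes. What the authors deposited were raw counts of reads, listed by symbol, neither filtered nor normalized. The annotation, strand setting and treatment of multi-mapped reads are not given in the sources used here, so genes that overlap or have near-identical copies (the *H2*, *Ly6* and *Ifi* families, for example) are uncertain.

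Genes that exceeded 1 CPM in 5 or more of the 35 samples were kept. All 35 samples entered 1 fit of 6 group means in edgeR 4.0.16 (R 4.3.3, TMM scaling, quasi-likelihood test, Benjamini-Hochberg adjustment). Each SE was derived from that test, as the absolute log2 fold change divided by the square root of its F statistic. DEGs passed limits of 1 on the absolute log2 scale and 0.05 on the adjusted p, as in the study's methods. On simulated counts, 187 of 200 genes changed 4-fold in this comparison were recovered (93.5%), with 4 false calls. The simulation changed only genes with a mean over 1 CPM and drew all samples of a group around the same means. It therefore does not cover samples that stand apart, such as moKC sample 1 and CLEC4F- sample 4. Positions are from GENCODE M21 (54106 of 54735 symbols found) and promoters from RefSeq (GRCm38.p6).

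The members, gene lists and naming rule were chosen with earlier results of these data known. Named were *Clec4f*, *Timd4* and *Clec1b*, the 10 DEGs per direction with the largest fold change among those without overlap and over 10 CPM, the 5 per direction with the largest CPM difference, and up to 3 members per list and direction. Other list members are named after their values were seen. Alternatives were DESeq2 1.42.0, limma-voom (limma 3.58.1), library size alone, no filter, stricter limits, the 11 samples alone, a replicate block, covariates, and leaving out samples. The other groups of the series were used only for the shared spread and, for ResKCs, as a reference level. Some list members are counted but not reported by name here.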

Additional observations from a re-analysis of the deposited data

Results flagged for a closer look

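Of 146 pairs of a named gene and a group, 12 held a sample far from the others of its group (Dixon's test at 95%, which chance alone sets off in about 1 of 20 groups). In moKC sample 1, *Mmp9* (510 CPM, others 10.1 to 20.7) and *C4b* (1510 CPM, others 165 to 279) were high, and *Spp1* (1.74 CPM, others 28.2 to 32.7), *Pparg* (20.4 CPM, others 46.0 to 57.0) and *Npc1* (27.8 CPM, others 44.9 to 53.9) were low. In moKC sample 3, *Nfatc1* was low (69.6 CPM, others 80.3 to 85.1). In CLEC4F- sample 4, *C6* (160 CPM, others 12.0 to 23.3), *Cd86* (377 CPM, others 209 to 241), *Cd163* (28.9 CPM, others 9.01 to 13.7), *Tfrc* (74.4 CPM, others 29.5 to 39.0) and *Ifi208* (26.2 CPM, others 16.4 to 17.9) were high, and *Adam8* was low (45.7 CPM, others 83.0 to 113). In each of these 6 genes, CLEC4F- sample 4 lay on the side of the moKCs.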

How the results depend on the processing

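Fits without 1 sample gave 254 to 406 DEGs higher in moKCs (fewest without moKC 1, most without CLEC4F- 4) and 270 to 438 higher in CLEC4F- macs (fewest without CLEC4F- 1, most without CLEC4F- 4), and at an adjusted p under 0.05 alone 948 to 1489 and 687 to 1103. Limits of 1.5 and 0.01 gave 135 and 184 DEGs. Library size alone, which shifted the median of all genes by -0.08, gave 1478 genes higher in CLEC4F- macs at an adjusted p under 0.05, and the 11 samples alone gave 803 higher in moKCs. The 11 samples with a replicate block gave 151 and 237 DEGs and 320 and 347 genes at an adjusted p under 0.05, but the numbers share nothing known. Deviations of same-numbered samples correlated by -0.12 to 0.10 over 5 pairs, and 1 of 5 moKC samples correlated best with its own number. Without moKC 1 and CLEC4F- 4 together, an alternative chosen after seeing the data, 1275 and 895 genes passed. Of 72 named genes called, 36 kept call and direction in all 21 alternatives, 4 kept them where an adjusted p was given (DESeq2 gave none), 32 lost the call in at least 1, and 0 reversed. *Timd4*, not called, ranged from -0.0273 (without moKC 4) to 0.85 (without moKC 5) in fits without 1 sample. Within both styles of sample names all 72 kept their sign. With 5 against 6 samples at these depths, differences in genes near 1 CPM rest on few counts.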
